A study of Rattus norvegicus with 18 samples.

Results

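The 5 genes described here, Sox18, Tmem204, Mmrn2, Shank3 and Eva1b, are among those whose transcripts fell furthest when rat liver sinusoidal endothelial cells were put into culture. They were chosen by gene symbol, 5 of the 11018 genes with a symbol on the array, because earlier results of the same data showed an early fall at 2 h, and each had a single probe set. The values that chose them, those of LSEC_2h and LSEC_0h together with the extent of recovery at 42 h, are therefore given as a description, and since every comparison of the 5 genes holds LSEC_0h, LSEC_2h or LSEC_42h, none is given a p-value.

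LSEC, or liver sinusoidal endothelial cells, form the fenestrated wall of the hepatic sinusoids; LMEC, lung microvascular endothelial cells, come from a bed with a continuous wall. Transcript levels were measured on Affymetrix arrays in 18 rat samples: LMEC digested out of lung, purified on a gradient and by magnetic sorting and never cultured (LMEC_0h, 5 arrays), LSEC purified from liver in that manner (LSEC_0h, 5 arrays), and LSEC cultured on collagen for 2 h (LSEC_2h, 4 arrays) or 42 h (LSEC_42h, 4 arrays). The labels used here give no genotype, agent, strain, sex or age. They do not say whether each array stands for its own animal, and p-values therefore cover the array-to-array spread alone, part of which may be technical. All values are the deposited log2 expression values per probe set, and arrays are called by the numbers in their titles. Levels of different genes on such arrays cannot be set against each other, so each gene is compared only with itself.

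Endothelial identity depends on transcription factors of the SOX, ETS and GATA families, on cell surface receptors and on a basement membrane, and isolated liver sinusoidal endothelium is known for losing specialised features quickly in culture. SOX18 belongs to the SoxF group of transcription factors with SOX7 and SOX17 and acts in the formation of blood and lymphatic vessels. TMEM204 is a membrane protein of cell junctions, related to claudins. MMRN2 is an extracellular glycoprotein of the EMILIN and multimerin family that binds VEGF-A and the endothelial surface proteins CLEC14A and CD93. SHANK3 is best known as a scaffold of excitatory synapses, and EVA1B is a small membrane protein whose role is poorly known.

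The upstream sequences of Mmrn2, Shank3 and Eva1b are shown because these genes fell together at 2 h and lie below fresh LSEC at 42 h. The RefSeq table for build GRCr8 held 3 of the 5 genes, and the 250 bases before each annotated start are given 5′ to 3′. Capitals mark AGGAAG, a form of the site bound by ETS factors, on either strand (CTTCCT on the other).
Mmrn2, chr16:9711955-9712204, plus strand: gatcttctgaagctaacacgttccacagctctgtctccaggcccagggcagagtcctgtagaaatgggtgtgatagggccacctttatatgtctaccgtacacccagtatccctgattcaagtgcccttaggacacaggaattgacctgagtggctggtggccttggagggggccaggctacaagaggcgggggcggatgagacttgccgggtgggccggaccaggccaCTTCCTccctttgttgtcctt
Shank3, chr7:122448073-122448322, plus strand: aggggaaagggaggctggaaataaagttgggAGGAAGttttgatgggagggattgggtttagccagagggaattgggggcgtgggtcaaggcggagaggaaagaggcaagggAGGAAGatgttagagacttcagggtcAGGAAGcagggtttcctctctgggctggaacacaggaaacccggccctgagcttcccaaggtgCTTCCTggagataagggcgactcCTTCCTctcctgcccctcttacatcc
Eva1b, chr5:143711377-143711626, plus strand: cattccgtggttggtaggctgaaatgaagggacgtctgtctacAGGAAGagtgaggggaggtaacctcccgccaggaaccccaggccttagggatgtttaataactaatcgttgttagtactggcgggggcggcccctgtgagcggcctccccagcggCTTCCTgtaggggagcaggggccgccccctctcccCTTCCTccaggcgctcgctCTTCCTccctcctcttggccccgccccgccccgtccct

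AGGAAG was found 1 time before Mmrn2, 5 times before Shank3 and 4 times before Eva1b, and 29.4% of the 27457 rat promoters of this length held it at least 1 time. The GC box GGGCGG was found 1 time before Mmrn2, 0 times before Shank3 and 4 times before Eva1b, against 32.4% of all promoters. Of the letters bound by SOX factors, AACAAT was in none of the 3 windows (10.3% of all promoters), and ACAAAG, which SOX and TCF factors share, was found 1 time before Mmrn2 (16% of all promoters). Both strands were searched, no match overlaps one of a different motif, and GC boxes that share a base with each other were counted separately. A match is a run of letters and was not tested for binding.

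Whole-series facts bear on every comparison of cultured with fresh cells. Bacterial poly-A control probe sets averaged 5.72 to 5.74 in the LSEC_0h arrays, 7.62 to 8.37 in the LSEC_2h arrays, 7.68 to 7.86 in the LSEC_42h arrays and 5.66 to 5.68 in the LMEC_0h arrays, so culture and whatever differed in the preparation of the RNA cannot be told apart in those comparisons. The lowest value of any of the 5 genes in any array was 7.36, above the 5.41 to 6.26 at which single control probe sets lay in the fresh groups. That value was Eva1b in LSEC_2h array 7, where the median of all probe sets was 7.1. The controls, raised in culture, give no floor for the cultured arrays. The Actb log2 level at its 3′ end exceeded that at its 5′ end by 0.91 to 1.28 in LSEC_0h, 1.63 to 1.69 in LSEC_2h, 1.81 to 1.89 in LSEC_42h and 0.97 to 1.34 in LMEC_0h. For Gapdh the same difference was 0.29 to 0.84 in LSEC_0h, 0.29 to 0.41 in LSEC_2h, 0.31 to 0.39 in LSEC_42h and 0.34 to 0.74 in LMEC_0h. Gapdh thus did not show the higher values that Actb had in culture. Of 10 endothelial markers 7 were measured, and their mean lay at 11.02 to 11.25 in LSEC_0h, 10.55 to 10.7 in LSEC_2h, 10.49 to 11 in LSEC_42h and 10.86 to 11.22 in LMEC_0h, so all 4 groups carried them. This mean joins markers that moved in opposite directions at 2 h. Their log2 differences from LSEC_0h were -1.63 for Tek, -1.29 for Cdh5, -1.26 for Egfl7 and -1.12 for Tie1. They were 1.12 for Fli1, 0.51 for Esam and 0.2 for Erg. In bulk samples like these, fewer cells of a type and less RNA per cell cannot be told apart.

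Sox18 (Entrez gene 311723) fell steeply and was back at its fresh level, on average, by 42 h. Its values were 11.06, 11.16, 11.05, 10.94 and 11.29 in the LSEC_0h arrays, 8.07, 8.03, 8.29 and 7.86 in the LSEC_2h arrays, and 9.83, 11, 11.88 and 11.59 in the LSEC_42h arrays. The 2 h arrays lay far below both other times, while the 42 h arrays spread from below to above the fresh range. Sox18 was 8.22-fold lower in LSEC_2h than in LSEC_0h (log2 difference -3.04, SE 0.32), the seventh place in the order of falls over all genes. The LSEC_42h mean was 11.07 ± 0.91 (SD, n = 4) against 11.1 ± 0.13 (SD, n = 5) in LSEC_0h, a log2 difference of -0.03 with a 95% interval of -0.69 to 0.64. That near-equality rests on array 1: without it the difference was 0.39, and without array 3 it was -0.29. Array 1 also had the lowest endothelial marker mean of the 42 h arrays, 10.49 against 10.61, 11 and 10.83 in arrays 2, 3 and 12, which is the same order as that of Sox18, and the part this plays in the Sox18 values was not tested.

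Tmem204 (Entrez gene 287129) showed the deepest fall of the 5 and a small return. It had 11.45, 11.46, 11.03, 11.32 and 11.1 in LSEC_0h, 8.05, 8.12, 8.62 and 7.47 in LSEC_2h, and 8.73, 8.64, 8.8 and 9.17 in LSEC_42h. Every 42 h array lay above every 2 h array and below every fresh array. The share of all genes separated in this way at 42 h was not counted, here or for the genes below. At a limma adjusted p under 0.05, 20.8% of all genes were lower in LSEC_42h than in LSEC_0h, and 33.1% were higher than in LSEC_2h. Tmem204 was 9.24-fold lower at 2 h (log2 difference -3.21, SE 0.22), second of all genes after the chemokine gene Ccl6, and 5.43-fold lower at 42 h (log2 difference -2.44, SE 0.22) than in LSEC_0h. The LSEC_42h arrays lay 0.77 above the LSEC_2h arrays, with a 95% interval of 0.29 to 1.25.

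Eva1b (Entrez gene 362597) followed a course close to that of Tmem204. Its values were 10.6, 10.8, 10.55, 10.55 and 10.68 in LSEC_0h, 7.89, 7.57, 8.18 and 7.36 in LSEC_2h, and 8.26, 8.52, 8.62 and 8.5 in LSEC_42h. The 3 times again did not overlap, and the 42 h arrays stood just over the highest 2 h array. Eva1b was 7.41-fold lower at 2 h (log2 difference -2.89, SE 0.18) and 4.48-fold lower at 42 h (log2 difference -2.16, SE 0.18) than in LSEC_0h. The step between LSEC_42h and LSEC_2h was 0.73, with a 95% interval of 0.32 to 1.13.

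Mmrn2 (Entrez gene 306288) had a narrow spread in LSEC_0h and a wider one in culture. The fresh arrays gave 11.5, 11.53, 11.41, 11.51 and 11.47, the LSEC_2h arrays 9.98, 9.19, 9.6 and 8.6, and the LSEC_42h arrays 9.21, 8.95, 10.39 and 10.17. The cultured arrays overlapped each other and lay entirely below the fresh ones. Mmrn2 was 4.41-fold lower at 2 h (log2 difference -2.14, SE 0.28) and 3.48-fold lower at 42 h (log2 difference -1.8, SE 0.28) than in LSEC_0h, and LSEC_42h differed from LSEC_2h by 0.34 with a 95% interval of -0.28 to 0.96. Of the 42 h arrays, 3 and 12 were the higher pair for Mmrn2, for Sox18 and for the endothelial marker mean.

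Shank3 (Entrez gene 59312) did not come back. It had 10.92, 10.76, 10.68, 11.03 and 10.87 in LSEC_0h, 9.46, 8.87, 9.26 and 8.57 in LSEC_2h, and 8.88, 8.56, 8.67 and 8.65 in LSEC_42h. All cultured arrays lay below all fresh arrays, and the 42 h arrays fell within or just under the range of the 2 h arrays. Shank3 was 3.51-fold lower at 2 h (log2 difference -1.81, SE 0.18), the shallowest fall of the 5 and place 99 in the order over all genes, and 4.47-fold lower at 42 h (log2 difference -2.16, SE 0.18). LSEC_42h minus LSEC_2h was -0.35, with a 95% interval of -0.76 to 0.06.

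**Figure D1:**
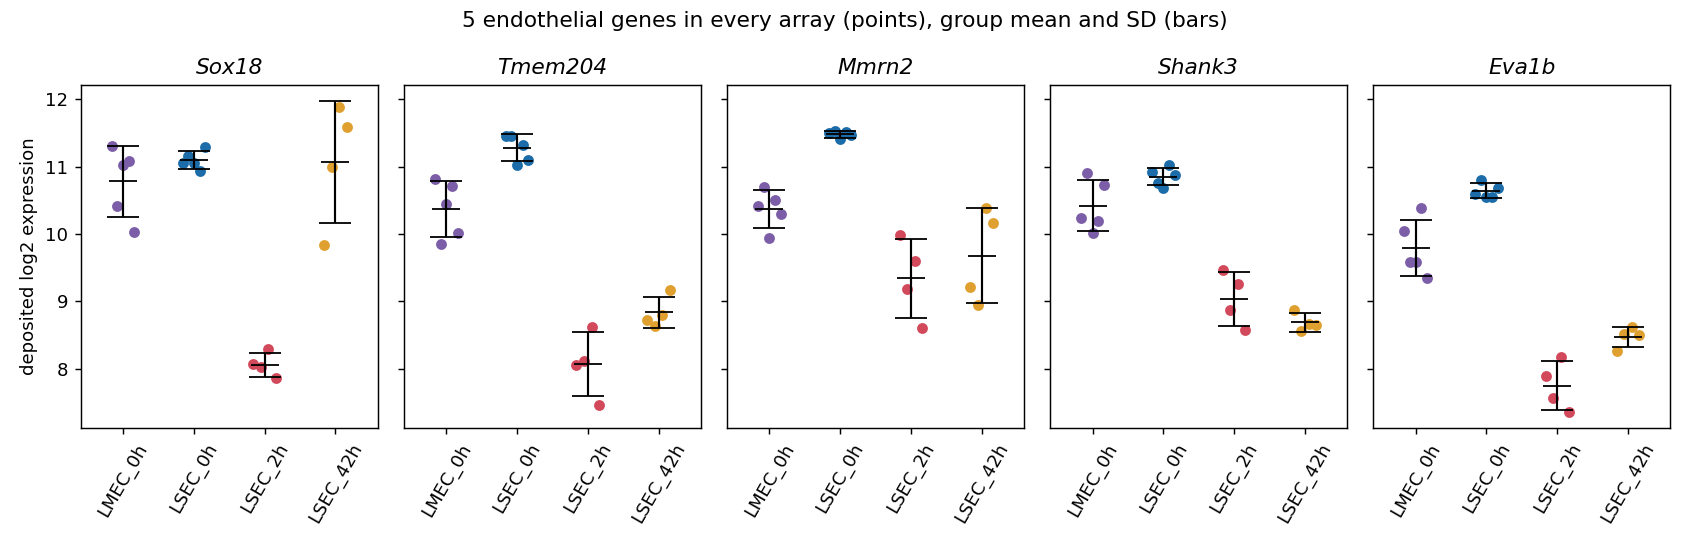
Deposited log2 expression (vertical axis) of Sox18, Tmem204, Mmrn2, Shank3 and Eva1b in each array of LMEC_0h, LSEC_0h, LSEC_2h and LSEC_42h; points are arrays, long ticks the group means and error bars the SD (n = 5, 5, 4 and 4). All LSEC_2h arrays lie below all LSEC_0h arrays for each gene, as they do for 29.5% of all genes, and at 42 h Sox18 is the gene whose arrays reach back to the fresh level, from 9.83 to 11.88.

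The 2 h arrays differed among themselves in a shared way. LSEC_2h array 7 was the lowest of the 4 for all 5 genes, and the highest was array 6 for Sox18, Tmem204 and Eva1b and array 4 for Mmrn2 and Shank3. This was not particular to the 5. Of the genes found below to be nearest to them, Pfn1, Abhd17a, Dll4, Stard8, Myh9, Septin9, Caskin2, Zfpm1 and Cd81 were also lowest in array 7. Tgfb1 shared its lowest value between array 7 and another array, and Id3 and Agrn were lowest in other arrays. Over all genes, array 7 was the lowest of the 4 for 26.9%. Its endothelial marker mean was 10.6, within the 10.55 to 10.7 of the group. Array 6 carried a hepatocyte marker mean of 10.11, against 6.91 to 7.52 in the other 2 h arrays and 8.09 to 9.57 in LSEC_0h. Without array 6 the log2 falls were -3.11 for Sox18, -3.39 for Tmem204, -2.22 for Mmrn2, -1.88 for Shank3 and -3.03 for Eva1b, each further from 0 than with it.

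Markers of other cell types differed between these groups as well. The mean of 9 macrophage and Kupffer cell markers was 8.06 to 10.51 in LSEC_0h, 6.82 to 7.34 in LSEC_2h, 6.4 to 6.66 in LSEC_42h and 6.73 to 7.87 in LMEC_0h. The mean of 14 T, NK and B cell markers was 6.39 to 6.55 in LSEC_0h, 7.22 to 7.69 in LSEC_2h, 6.23 to 6.26 in LSEC_42h and 6.46 to 7.5 in LMEC_0h. Of 15 stellate and mesenchymal markers 9 were higher and 1 lower in LSEC_2h than in LSEC_0h (41.4% and 32.7% of all genes). Their means were 7 to 7.83 against 6.61 to 7.03. In LSEC_42h 9 were lower than in LSEC_2h (38.9% of all genes), and the means at 42 h were 6.33 to 6.86. The mean of 18 hepatocyte markers at 42 h was 6.28 to 6.43. Over the LSEC_0h arrays, where the macrophage mean spanned 8.06 to 10.51, the mean of the 5 genes spanned 10.94 to 11.14. Array 15 had both the highest macrophage mean, 10.51, and the lowest mean of the 5 genes, 10.94. It was the lowest LSEC_0h array for 4 of the 5 genes, and for 29.5% of all genes. The part of these cells in the changes with culture was not tested.

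Recovery was expressed as the share of the log2 fall between LSEC_0h and LSEC_2h that had been regained in each 42 h array, with the LSEC_2h mean as 0% and the LSEC_0h mean as 100%. Sox18 had regained 99.2% ± 29.8 (SD, n = 4), from 58.2% in array 1 to 125.5% in array 3. Eva1b had regained 25.1% ± 5.3 and Tmem204 23.9% ± 7.2 (SD, n = 4 each), and no array of either passed 34.4%. Mmrn2 stood at 15.8% ± 33.1 (SD, n = 4), with -6.3% and -18.3% in arrays 1 and 2 and 49.1% and 38.7% in arrays 3 and 12, so its mean describes no single array. It was 27.2% without array 2, 4.7% without array 3, 8.2% without array 12 and 4.8% without LSEC_2h array 7. Shank3 was at -19.2% ± 7.6 (SD, n = 4), negative in 4 of 4 arrays, and at -30.5% without LSEC_2h array 7 and -10.6% without LSEC_2h array 4. The lowest Sox18 array lay above the highest array of each of the other 4 genes.

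On the linear scale the same shares were 112.9% ± 64.4 for Sox18, 10% ± 2.7 for Eva1b, 8.2% ± 3.5 for Tmem204, 9.5% ± 19.2 for Mmrn2 and -9.6% ± 3.1 for Shank3 (SD, n = 4 each). The smaller values for Eva1b and Tmem204 follow from the scale itself, since equal log2 steps near the bottom are small linear amounts. Set beside the other 94 genes that fell at least as far as Shank3 at 2 h, which had a median recovered share of 21.5% with quartiles of -7.2% and 53.6%, Sox18 was exceeded by 3. Tmem204 and Eva1b were each exceeded by 45, Mmrn2 by 52 and Shank3 by 80. The 94 genes include the macrophage and Kupffer cell markers Clec4f (-28.2%), Csf1r (-25%), C1qa (-17.1%), Cd5l (-16.3%), C1qc (-13.7%), C1qb (-12.6%) and Aif1 (5%). Each of these lies under the median, and their part in the ranks was not tested. The ranks are a description, with no test.

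**Figure D2:**
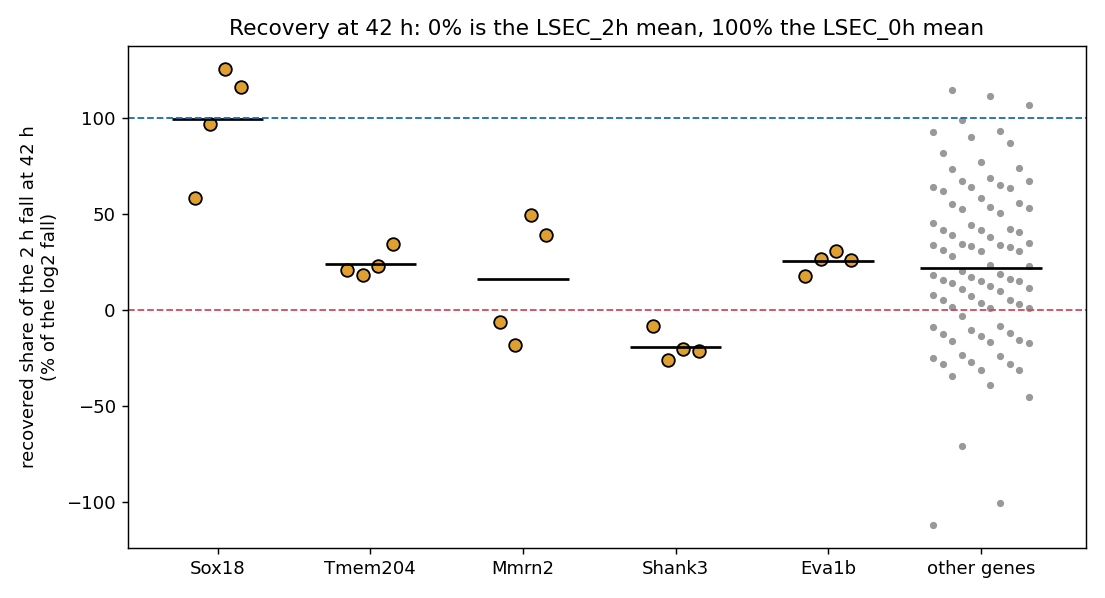
Recovered share of the 2 h log2 fall at 42 h, in percent (vertical axis), for the 5 genes in each of the 4 LSEC_42h arrays (orange points) and, as group means, for the other 94 genes that fell at least as far as Shank3 (grey points). Dashed lines mark the LSEC_2h mean (0%) and the LSEC_0h mean (100%), black bars are means for the 5 genes and the median for the others; Sox18 lies between 58.2% and 125.5%, and the 4 Shank3 arrays lie below 0%.

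The fresh lung cells show whether the level seen in fresh liver endothelium is shared by another vascular bed. LMEC_0h did not enter the choice of the genes, but the LSEC_0h arrays did, and a choice of genes that stand high in LSEC_0h leans such differences towards lower in LMEC_0h. In LMEC_0h, 16 of 16 lung epithelial markers were also higher than in LSEC_0h, with means of 9.15 to 10.91 against 6.26 to 6.39, and 12 of 15 stellate and mesenchymal markers were higher, with means of 7.74 to 8.71 against 6.61 to 7.03. Macrophage markers were lower in 7 of 9 and hepatocyte markers in 15 of 18, and the part of these cells in the differences was not tested. Of all genes, 19.8% were higher and 27.7% lower in LMEC_0h than in LSEC_0h.

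Mmrn2 had 10.42, 10.7, 9.94, 10.5 and 10.29 in LMEC_0h, against 11.41 to 11.53 in LSEC_0h, with no overlap, and was 2.16-fold lower (log2 difference -1.11, SE 0.26, 95% interval -1.67 to -0.56). Tmem204 had 10.81, 9.85, 10.45, 10.71 and 10.02 in LMEC_0h, against 11.03 to 11.46 in LSEC_0h, again without overlap, and was 1.88-fold lower (log2 difference -0.91, SE 0.2, 95% interval -1.34 to -0.48). Eva1b had 10.04, 9.59, 9.59, 10.39 and 9.34 in LMEC_0h, against 10.55 to 10.8 in LSEC_0h, and was 1.8-fold lower (log2 difference -0.85, SE 0.17, 95% interval -1.21 to -0.48). The LMEC_0h arrays of these 3 genes lay wholly below the LSEC_0h arrays, as did those of 22.3% of all genes.

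Shank3 had 10.23, 10.91, 10.02, 10.19 and 10.73 in LMEC_0h and overlapped the 10.68 to 11.03 of LSEC_0h. It averaged 1.35-fold lower in LMEC_0h (log2 difference -0.43, SE 0.17, 95% interval -0.8 to -0.07). Sox18 had 11.31, 10.42, 11.03, 11.09 and 10.03 in LMEC_0h, with the lower values in arrays 19 and 22, against 10.94 to 11.29 in LSEC_0h (log2 difference -0.32, SE 0.3, 95% interval -0.95 to 0.31). Without array 22 the Sox18 difference was -0.14.

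The cultured cells at 42 h were also set against fresh lung cells. The LSEC_42h arrays entered the choice through the extent of recovery, so these values too are a description. The lung epithelial markers were lower in LSEC_42h in 16 of 16 and the stellate and mesenchymal markers in 12 of 15, and their part was not tested. Of all genes, 22% were lower in LSEC_42h than in LMEC_0h. Shank3 averaged 8.69 ± 0.14 (SD, n = 4) in LSEC_42h and 10.42 ± 0.38 (SD, n = 5) in LMEC_0h, 3.31-fold lower (95% interval of the log2 difference -2.11 to -1.34). Tmem204 averaged 8.84 ± 0.23 in LSEC_42h and 10.37 ± 0.42 in LMEC_0h, 2.89-fold lower (95% interval of the log2 difference -1.99 to -1.08). Eva1b averaged 8.47 ± 0.15 in LSEC_42h and 9.79 ± 0.42 in LMEC_0h, 2.49-fold lower (95% interval of the log2 difference -1.7 to -0.93). The LSEC_42h arrays of these 3 genes lay wholly below the LMEC_0h arrays, as did those of 18.3% of all genes.

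Mmrn2 averaged 9.68 ± 0.71 in LSEC_42h and 10.37 ± 0.28 in LMEC_0h, and the groups overlapped. It was 1.61-fold lower (log2 difference -0.69, 95% interval -1.28 to -0.1), and the difference ran from -0.93 to -0.45 when single arrays were left out. Sox18 averaged 11.07 ± 0.91 in LSEC_42h and 10.78 ± 0.53 in LMEC_0h, a log2 difference of 0.3 with a 95% interval of -0.37 to 0.97. Without LSEC_42h array 1 the Sox18 difference was 0.71, and without array 3 it was 0.03.

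**Figure D3:**
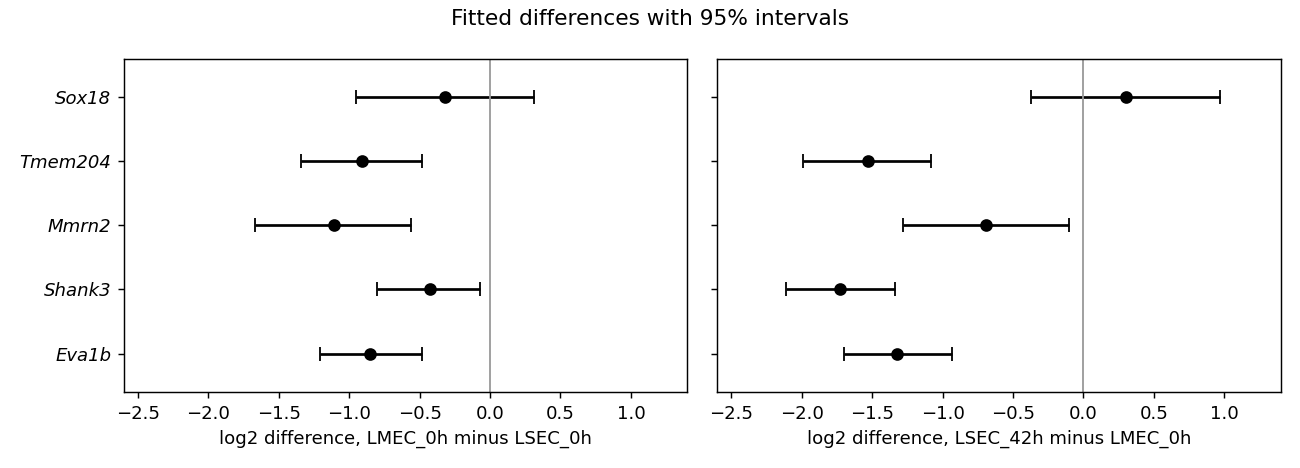
Fitted log2 differences (horizontal axes) of the 5 genes for LMEC_0h minus LSEC_0h (left) and LSEC_42h minus LMEC_0h (right), with 95% intervals from the model over 18 arrays. In both panels the interval of Sox18 spans 0 and those of the other 4 genes lie below 0, with Shank3 on the left (-0.43) and Mmrn2 on the right (-0.69) nearest to it. Without single arrays these 2 differences ran from -0.56 to -0.33 and from -0.93 to -0.45. The intervals are not adjusted for the number of genes. They describe genes chosen with the LSEC_0h and LSEC_42h arrays, so no test is read from them.

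Relatives and partners of the 5 genes had courses of their own. Sox17, the other SoxF factor measured, averaged 9.39 ± 0.1 in LSEC_0h (SD, n = 5), 9.37 ± 0.33 in LSEC_2h and 8.45 ± 0.24 in LSEC_42h (SD, n = 4 each). It fell by 0.94 on the log2 scale at 42 h against LSEC_0h (limma adjusted p = 0.000465), and at 2 h its difference was -0.02 (limma adjusted p = 0.927; 0.14 with quantile normalization). Eva1c, the measured relative of Eva1b, rose by 0.8 at 2 h (limma adjusted p = 0.000624) and its 42 h difference from LSEC_0h was -0.17, which did not pass. Shank1 and Shank2, both dim at 6.74 and 6.38 in LSEC_0h, were 0.43 and 0.27 higher at 2 h, and for Shank2 this call was lost with quantile normalization.

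In the family of Mmrn2, Emilin1, an extracellular glycoprotein of elastic fibres, fell with it and further. Emilin1 averaged 11.29 ± 0.2 in LSEC_0h (SD, n = 5), 8.8 ± 0.45 in LSEC_2h and 8.02 ± 0.4 in LSEC_42h (SD, n = 4 each), 5.63-fold lower at 2 h (limma adjusted p = 1.5e-08) and 9.68-fold lower at 42 h (limma adjusted p = 9.71e-10) than in LSEC_0h. Mmrn1, which is stored in platelets and endothelium, averaged 8.52 ± 0.9 in LMEC_0h (SD, n = 5) and 5.73 in LSEC_0h, where the bacterial control probe sets lay at 5.48 to 6.26. Over the list of this family with its partners, 7 genes measured, 3 were higher and 2 lower at 2 h (median 0.24). These shares lie near the 41.4% and 32.7% of all genes (median 0.08). At 42 h 1 was higher and 3 lower (median 0.09), against 29.7% and 20.8% of all genes (median 0.05). The list also held Vegfa and thrombomodulin, Thbd, and Thbd was among the higher at 2 h (0.51) and the lower at 42 h (-2.47).

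The surface partners of MMRN2 changed in opposite directions. Clec14a, a C-type lectin of endothelium, averaged 10.51 ± 0.13 in LSEC_0h (SD, n = 5), 9.64 ± 0.07 in LSEC_2h and 11.44 ± 0.38 in LSEC_42h (SD, n = 4 each). It fell by 0.87 at 2 h (limma adjusted p = 0.000587) and at 42 h was 1.91-fold higher than in LSEC_0h (limma adjusted p = 0.000597). Cd93, a related lectin, averaged 9.74 ± 0.14 in LSEC_0h, 10.25 ± 0.09 in LSEC_2h and 9.16 ± 0.23 in LSEC_42h, so it rose by 0.51 at 2 h (limma adjusted p = 0.00511) and fell by 0.58 at 42 h (limma adjusted p = 0.0037). Cd248, a marker of perivascular cells, was dim in all groups, with means of 6.38 to 6.6, and its 0.22 rise at 2 h was not called with quantile normalization.

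Across a list of 43 other measured pan-endothelial genes, lower calls were more frequent than higher ones at both times, and named genes passed at a limma adjusted p under 0.05 unless stated. At 2 h 25 of 43 were lower and 7 higher than in LSEC_0h, with a median log2 difference of -0.63, against 32.7% lower and 41.4% higher and a median of 0.08 over all genes. With dim genes left out, the share of all genes higher at 2 h was smaller, as given in the closing section. This limits the 41.4% as a yardstick here and for the other lists. Ramp2, a receptor partner for adrenomedullin, was 5.55-fold lower, the lymphatic and sinusoidal VEGF receptor gene Flt4 5.3-fold, the Notch ligand Dll4 4.09-fold and endothelial nitric oxide synthase Nos3 4-fold. The sphingosine phosphate receptor S1pr1 (2.51-fold), Myct1 (2.22-fold) and the ETS factor Fli1 (2.17-fold) rose.

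At 42 h 25 of the 43 were lower and 5 higher than in LSEC_0h (median -0.58), against 20.8% lower and 29.7% higher over all genes (median 0.05). The gap junction gene Gja4 was 5.66-fold lower, thrombomodulin Thbd 5.55-fold, the VEGF receptor Flt1 4.6-fold and Flt4 4.41-fold, while S1pr1 and Clec14a were higher by 0.99 and 0.93 and Gpihbp1, which anchors lipoprotein lipase, by 0.82. Between LSEC_42h and LSEC_2h, 12 were higher and 12 lower in LSEC_42h (median 0.02), where 33.1% of all genes were higher and 38.9% lower. The log2 difference between those times was 1.8 for Clec14a, 1.5 for Dll4, -1.6 for Flt1 and -2.99 for Thbd. Against LSEC_0h, LMEC_0h had 14 higher and 12 lower (median 0.11), where 19.8% of all genes were higher and 27.7% lower (median -0.04). Against LMEC_0h, LSEC_42h had 8 higher (5 without LSEC_42h array 3) and 25 lower (median -0.61), where 39.9% of all genes were higher and 22% lower (median 0.09). Among the lower ones were Thbd, 23.4-fold lower, Gja4, 19.2-fold, the TGF-beta receptor Acvrl1, 18.6-fold, and the endothelial diaphragm protein Plvap, 16.2-fold. These were also higher in LMEC_0h than in LSEC_0h, 4.22-fold for Thbd, 3.38-fold for Gja4, 7.72-fold for Acvrl1 and 14.4-fold for Plvap. The 42 h difference of Plvap from LSEC_0h was -0.16, which did not pass. Earlier results of these data were known when the list was drawn up, so its direction is not independent evidence.

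**Figure D4:**
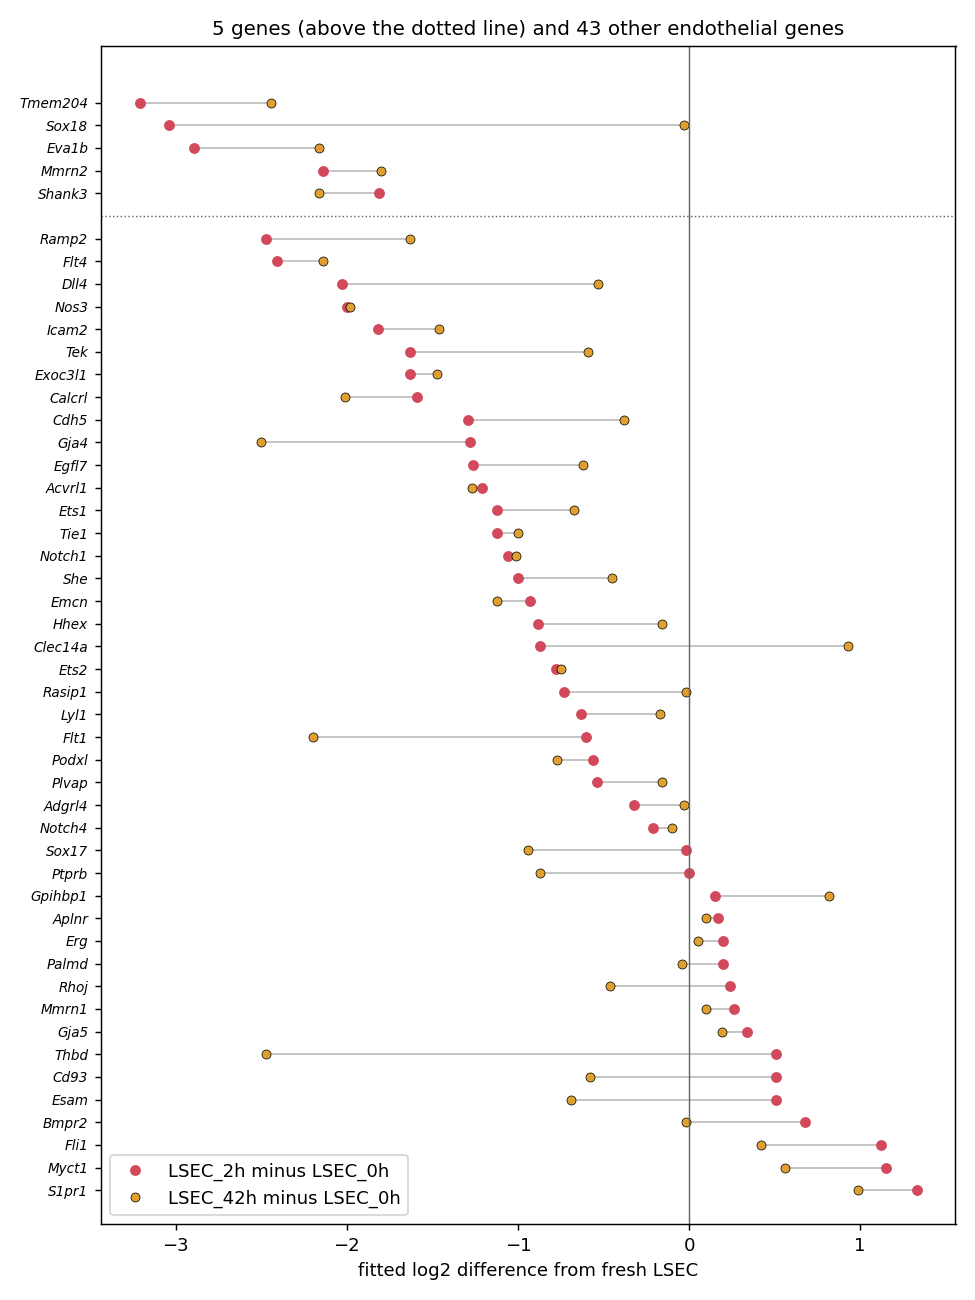
Fitted log2 differences from LSEC_0h (horizontal axis) at 2 h (red) and 42 h (orange) for the 5 genes, above the dotted line, and 43 other endothelial genes, below it, ordered by the 2 h value; grey lines join the times of a gene. Sox18 (-3.04 and -0.03) has a long line back to 0, as Dll4 (-2.03 and -0.53) has in part, whereas Shank3 (-1.81 and -2.16) moves further away.

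Of 27 other endothelial transcription factors, 9 were lower and 8 higher at 2 h (median -0.02), a share of lower calls near the 32.7% of all genes and of higher calls under their 41.4%. At 42 h 13 were lower and 2 higher (median -0.21), against 20.8% and 29.7% of all genes. The 8 higher at 2 h became 4 without LSEC_2h array 7 and 5 without LSEC_0h array 15, and the 2 at 42 h became 1 without LSEC_42h array 3. At 2 h the hypoxia-inducible factor Epas1 was 4.29-fold lower, Gata2 3.28-fold and the flow-responsive Klf2 3.03-fold, while Klf4 was 1.63-fold higher. At 42 h Klf2 was 8.22-fold lower than in LSEC_0h, Klf4 5.58-fold, Epas1 3.35-fold and the Notch target Hes1 3.33-fold. The factors that rose at 42 h were Tcf4 (0.81) and Fli1 (0.42).

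Genes of the VEGF receptor pathway, with which MMRN2 is linked, were lower in 12 of 22 members and higher in 6 at 2 h (median -0.39), against 32.7% and 41.4% of all genes. At 42 h 12 were lower and 1 higher (2 higher without LMEC_0h array 22; median -0.36), against 20.8% and 29.7% of all genes. Akt1, a kinase downstream of the receptors, was 3.7-fold lower at 2 h and 1.6-fold lower at 42 h than in LSEC_0h, and the coreceptor Nrp1 was 2.52-fold and 1.97-fold lower. The adaptor Sh2d2a (2.51-fold) and the ligand Vegfc (1.63-fold) were higher at 2 h. Vegfa averaged 6.44 in LSEC_0h, 6.68 in LSEC_2h and 6.68 in LSEC_42h, and passed at neither time. Of 15 SHANK relatives and scaffold partners, 6 were lower and 8 higher at 2 h (6 and 5 with quantile normalization; median 0.24), and 4 lower and 1 higher at 42 h (median -0.01). These shares at 2 h lie near the 32.7% lower and 41.4% higher of all genes. At 42 h, 20.8% of all genes were lower and 29.7% higher. Lower at 2 h were the actin-binding Dbnl (log2 difference -1.38), Homer3 (-1.04) and the exchange factor Arhgef7 (-0.86).

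Genes with a course most like that of each of the 5 were found by the root mean square distance between the log2 differences of LSEC_2h, LSEC_42h and LMEC_0h from LSEC_0h, over group means of all 18 arrays. Nearest to Sox18 were Pfn1, which binds actin monomers, at a distance of 0.43, the depalmitoylase gene Abhd17a at 0.45 and Dll4 at 0.65. Tmem204 and Eva1b were each other's nearest gene of all, at 0.25, and both had Id3, an inhibitor of helix-loop-helix factors, as their second, at 0.38 and 0.31. The third places were held by Stard8 for Tmem204 (0.51) and the nonmuscle myosin Myh9 for Eva1b (0.35).

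Nearest to Mmrn2 were the cytoskeletal gene Septin9 (0.11), the scaffold Caskin2 (0.14) and the GATA cofactor Zfpm1 (0.21). Nearest to Shank3 were the tetraspanin Cd81 (0.13), Tgfb1 (0.24) and the proteoglycan agrin, Agrn (0.25). Among the 5 genes themselves, Sox18 was 1.24 to 1.44 from each of the others, and the other pairs were 0.25 to 0.87 apart. The distances carry no test and say nothing of shared control.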

How the data were processed

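Biotin-labelled cRNA was hybridised to Affymetrix arrays, per the labels' protocols. The authors deposited 1 log2 expression value per probe set and array; log2 was read from the values, while how background was corrected and probes were normalized and summarised is not given in the sources used here. Of 11484 probe sets, 57 were controls, and the 11018 with 1 gene symbol in the platform annotation were tested; 409 without a symbol were left out. The values were used as deposited, with no pseudocount. All 18 arrays entered 1 linear model with a mean per group in limma 3.58.1 (R 4.3.3), with an intensity trend, two-sided tests and Benjamini-Hochberg adjustment over all 11018 genes; calls required an adjusted p under 0.05, and intervals are 95% intervals of the fitted difference. The number of arrays limits the precision.

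Array numbers are not shared between groups, so nothing was paired. No p is printed for the 5 genes, because the LSEC_0h and LSEC_42h arrays entered their choice. The 5 genes, the gene lists and the comparisons were chosen with earlier results of these data known. Besides the 5 genes, the text names the 3 genes nearest to each, relatives and partners, up to 4 called genes with the largest difference from each list and up to 3 that oppose it. Listed genes were matched by platform symbol or by Entrez identifier through RefSeq (GRCr8), and others were not analysed here. Motifs and sequences came from the RefSeq promoter table. Alternatives were quantile normalization, leaving out dim genes, only the 2 groups compared, no trend, array weights, unnamed probe sets kept, a limma test of changes over 1.5-fold and leaving out each array. Tested on simulated data with 200 changed genes among 11018, 94.3% of 2-fold changes were recovered for LMEC_0h minus LSEC_0h and 94% for LSEC_42h minus LMEC_0h. Python 3.11.15 and pandas 2.3.3 were used for the other steps.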

Additional observations from a re-analysis of the deposited data

How the results depend on the processing

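The falls at 2 h kept their direction under quantile normalization, array weights and without each array, and so did the 42 h differences from LSEC_0h except that of Sox18, which lay near 0 and ran from -0.29 to 0.39 without single arrays. No paired analysis was possible because the groups share no array number. No test against a 1.5-fold change is read for the 5 genes, because the LSEC_0h and LSEC_42h arrays entered their choice. The interval end nearest to no change describes them instead, with the fitted difference in brackets, except for Sox18, whose intervals span 0. This end is affected by the same choice, is not adjusted for the number of genes, and is no test. For LMEC_0h minus LSEC_0h that end was 1.39-fold lower for Tmem204 (-0.91) and 1.47-fold for Mmrn2 (-1.11). It was 1.05-fold for Shank3 (-0.43) and 1.4-fold for Eva1b (-0.85). For LSEC_42h minus LMEC_0h it was 1.07-fold for Mmrn2 (-0.69), 2.11-fold for Tmem204 (-1.53), 2.53-fold for Shank3 (-1.73) and 1.9-fold for Eva1b (-1.32). For Mmrn2 LSEC_42h minus LMEC_0h was -0.69 when the fit held no other group and -0.38 with array weights. Leaving out single arrays, the LSEC_42h minus LMEC_0h difference ran from -0.93 to -0.45 for Mmrn2 and from 0.03 to 0.71 for Sox18, the LMEC_0h minus LSEC_0h difference of Shank3 from -0.56 to -0.33, and the recovered share of Shank3 from -30.5% (without LSEC_2h array 7) to -10.6% (without LSEC_2h array 4). With quantile normalization the recovered share was 18.6% for Eva1b and -32.5% for Shank3, and on the linear scale it was 8.2% for Tmem204, 10% for Eva1b and -9.6% for Shank3; the cause of the first pair was not tested. Of the 43 pan-endothelial genes, 12 were higher at 2 h with only the groups compared, and 19 were higher in LSEC_42h than in LSEC_2h with array weights. With no fold limit, 8 were higher in LSEC_42h than in LMEC_0h, and 5 (without LSEC_42h array 3) to 10 when single arrays were left out. By limma's test against a 1.5-fold change 3 were higher at 2 h, and 1 higher and 10 lower at 42 h. It called 3 higher and 5 lower in LSEC_42h than in LSEC_2h, and 6 lower in LMEC_0h than in LSEC_0h. In LSEC_42h against LMEC_0h it called 4 higher and 16 lower. Over all genes that test called 685 higher and 1007 lower at 2 h (4558 and 3600 without the fold limit), 507 and 528 at 42 h (3276 and 2294), 1187 and 582 between LSEC_42h and LSEC_2h (3649 and 4290), 634 and 454 in LMEC_0h against LSEC_0h (2182 and 3053), and 706 and 817 in LSEC_42h against LMEC_0h (4394 and 2420). With dim genes left out, 1842 were higher at 2 h and 1745 lower in LSEC_42h than in LSEC_2h, among the 6796 genes kept; the cause was not tested. Of the counts over all genes and over the other gene lists, these included, 75 moved by over 1.5 times and 1425 did not.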

Other observations

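Dll4, the Notch ligand gene named above for its closeness to Sox18, was spread more widely over the 42 h arrays than over the 2 h arrays. Its values were 8.18, 9.38, 10.25 and 10.32 in LSEC_42h arrays 1, 2, 3 and 12, against 8.11, 8.03, 8.08 and 7.92 in LSEC_2h, so array 1 stood near the 2 h level and arrays 3 and 12 near the LSEC_0h mean of 10.07. For Sox18 array 1 was lowest as well, at 9.83. The adherens junction gene Cdh5 gave 10.84, 11.14, 11.66 and 11.54 in the same 42 h arrays. The order is given as a description of 4 arrays, with no test.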
